A study of Drosophila melanogaster with 6 samples.

Results

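Cytochrome P450s are haem-containing enzymes that insert an oxygen atom into steroids, fatty acids, pheromones, plant compounds and insecticides. Insects carry them as a large gene family named by family number, subfamily letter and gene number, and sort them into 4 clans called CYP2, CYP3, CYP4 and mitochondrial. CYP3 clan genes, such as the Cyp6, Cyp9 and Cyp28 families, are best known for the breakdown of foreign compounds, much of which takes place in gut, Malpighian tubule and fat body. In the head some members act in glia, in olfactory organs and in the fat body that surrounds the brain. The members described here are the probe sets assigned to a single gene whose symbol has the form Cyp, family number, lower-case letters and a number, as in Cyp4aa1. This gave 84 probe sets for 80 genes, out of 13966 probe sets and 10844 singly named genes on the array. Of 81 such symbols in the RefSeq gene table of the fly, only Cyp9f3 had no probe set here.

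The arrays compared brains without mushroom bodies with intact brains, to ask which transcripts change when these learning centres are lost. Ablated brains (arrays ablated 4, 5 and 6) came from adult CantonS females that had eaten hydroxyurea at 25 mg/ml for 4 h as newly hatched larvae. This drug blocks DNA synthesis and kills the neuroblasts that divide at that time, those of the mushroom bodies among them. Control brains (arrays control 1, 2 and 3) came from adult CantonS females with no treatment, and all flies were kept at 25 °C on corn meal food. Both groups share the wild-type CantonS background, and the drug was given to every ablated sample and to none of the controls, so its other effects cannot be told apart from loss of the mushroom bodies. The labels do not tie the arrays to separate cultures or dissections. It is therefore not known whether the array-to-array spread behind the p-values below is that of independent samples. Markers of other tissues differed among arrays of the same group, as given below. In whole brains, fewer cells of a type and less RNA per cell cannot be told apart.

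The deposited values are signals on a linear scale and were used in the main test without further scaling. Median signals were between 13 and 14.8 on ablated arrays and between 14.2 and 17.6 on control arrays. Differences are given as ablated minus control on the scale log2(signal + 2.7), which understates the change of dim genes. Their median over all 8381 tested probe sets was -0.17, and this general shift became -0.064 when each array was centred on its median. With quantile normalization it was -0.024 and with cyclic loess 0.0028. These scalings bring the arrays to a common level by construction, so a smaller shift was fixed in advance. The cause of the shift was not tested. Neuronal and glial markers were present throughout, apart from the glial gene gcm, which stayed at or below 6.6. Summed signals were 1234 to 1498 on ablated and 1287 to 1810 on control arrays for 7 neuronal genes. For 8 glial genes they were 1952 to 2572 and 2391 to 2809. The neuronal genes elav and para were wholly lower in ablated brains, as were 14.8% of all tested probe sets. The Kenyon cell gene ey, taken as a check of the ablation, read 98.2 to 120.2 on ablated and 193.2 to 268.4 on control arrays, with no overlap. Of the 8 Kenyon cell genes measured, 4 were wholly lower (ey, toy, prt and dnc), beside the same 14.8%. The others, dac, rut, mub and sNPF, overlapped. Transcripts of other tissues were also present, and their summed signals stand below beside the pattern by array.

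In the deposited values the P450 family as a whole did not follow the general shift to lower signal on the ablated arrays. This rested largely on a single array. A probe set was tested where its mean over the 6 arrays was at least 9.2, and 49 of the 84 probe sets, for 48 genes, passed. Of these, 45 reached 9.2 in both groups, 2 (Cyp12c1 and Cyp311a1) only in the ablated mean and 2 (Cyp4ae1 and Cyp4p2) only in the control mean. The 49 differences had a median of 0.054, with 28 above 0 and 21 below 0. Over all tested probe sets 74.1% lay below 0, against 42.9% of the P450 probe sets. Without ablated 5 the P450 median was -0.038 and the median of all probe sets -0.12. With median-centred arrays the P450 median was 0.16 and the median of all probe sets -0.064. With control 1 and ablated 5 both left out, they were 0.026 and -0.053.

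No P450 gene passed the test. In limma with Benjamini-Hochberg adjustment, 0 of 49 P450 probe sets and 0% of the 8381 tested had an adjusted p under 0.05. At an unadjusted p under 0.05 stood 3 P450 probe sets that were lower (Cyp4s3, Cyp4ae1 and Cyp4p2), against a background of 7.89%, and 2 that were higher (Cyp4aa1 and Cyp6a9), against 0.632%. Groups did not overlap for 2 lower P450 probe sets (Cyp4s3 and Cyp28d2), where the background was 14.8%, and for 3 higher ones (Cyp4aa1, Cyp12c1 and Cyp6a16), where it was 1.26%. Requiring a 1.5-fold difference as well left Cyp4s3 on the lower side, with a background of 3.2%, and Cyp4aa1 on the higher side, with 0.477%. On median-centred arrays 2 P450 probe sets lay wholly lower (Cyp4s3 and Cyp4ae1, background 8.79%) and 6 wholly higher (Cyp4aa1, Cyp6a9, Cyp6d4, Cyp12a4, Cyp12c1 and Cyp308a1, background 3.07%). In these counts Cyp12c1 passed the level for testing only through the ablated arrays, and Cyp4ae1 and Cyp4p2 only through the control arrays. Each thus passed through the group in which it was high, and its place in the counts is a description. The rule for naming genes took those 1.5-fold apart, the smallest p of each family group and direction, and a list of genes with known roles. Cyp28d2, Cyp6a16, Cyp4ae1, Cyp4p2, Cyp4e2, Cyp4d20, Cyp6a23, Cyp6d4, Cyp6g2, Cyp9b2, Cyp28d1 and Cyp308a1 fall outside it and were picked after their values were seen. The same holds for Cyp4ac1, Cyp6a18, Cyp6a22, Cyp6t3 and Cyp309a1.

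**Figure D1:**
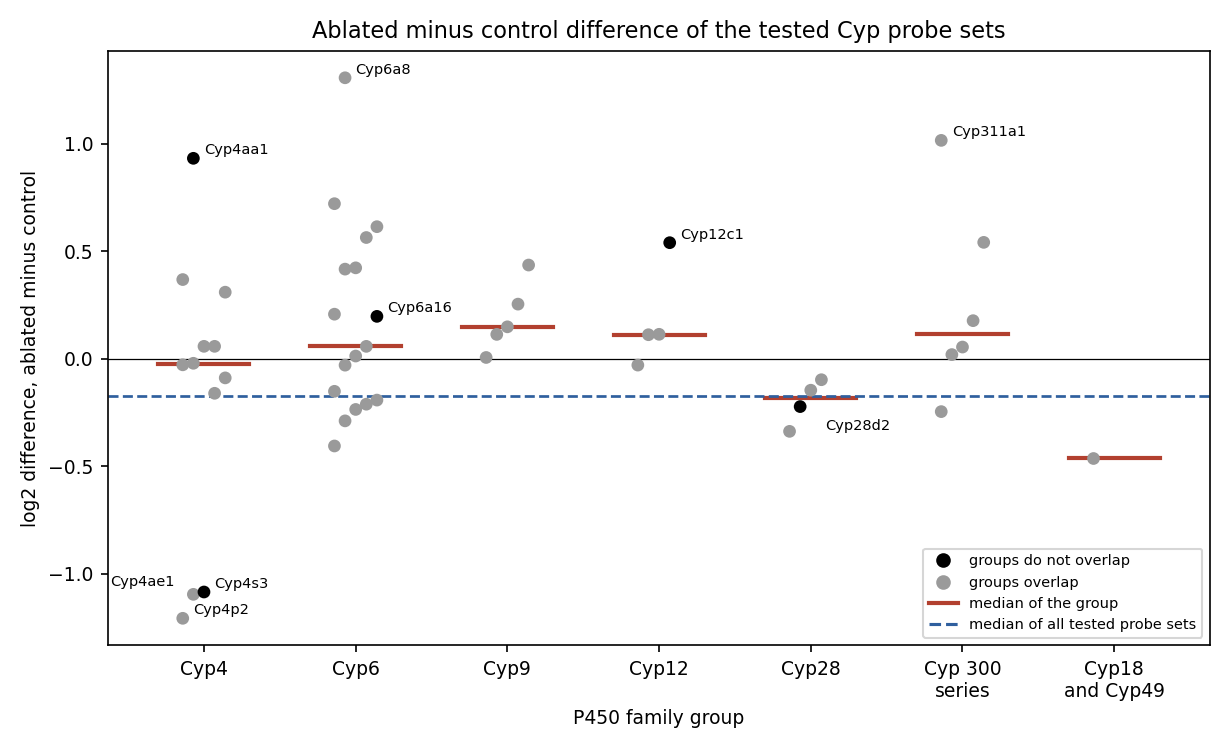
Log2 difference between ablated and control brains (vertical axis) of the 49 tested P450 probe sets, by family group (horizontal axis); each point is a probe set, black where the groups do not overlap, red bars are group medians and the dashed line is the median of all tested probe sets, -0.17. Cyp4 genes spread from -1.21 to 0.93, while the 4 Cyp28 genes lie between -0.34 and -0.098.

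The Cyp4 family, of the CYP4 clan, whose best known members oxidise fatty acids and hydrocarbons, had 12 of its 22 genes tested. Its median was -0.025, with 7 differences below 0 and 5 above. The 3 lowest differences among tested P450 probe sets were in this family. Of these, Cyp4p2 and Cyp4ae1 passed the level for testing only through the control arrays, where they were high. Cyp4aa1 (147268_at) gave signals of 22, 23.9 and 16.8 on ablated 4, 5 and 6, against 8.1, 12.3 and 8.7 on control 1, 2 and 3. Every ablated array was above every control array. The means were 20.9 ± 3.68 in ablated and 9.70 ± 2.27 in control brains (SD, n = 3 each), a log2 difference of 0.93 (SE 0.28, limma adjusted p = 0.554). This difference ranged from 0.84 to 1.08 when any single array was left out and was 1.04 on median-centred arrays. With an offset of 16 it was 0.52. The signals on control 1 and control 3 were under the level for testing.

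Cyp4s3 (145104_at) ran the other way. Its signal was 14.3, 4.7 and 16.4 on ablated 4, 5 and 6, and 30.8, 27.7 and 19.8 on control 1, 2 and 3. The groups did not overlap, and the lowest value was that of ablated 5. Means were 11.8 ± 6.24 in ablated and 26.1 ± 5.67 in control brains (SD, n = 3 each), a log2 difference of -1.08 (SE 0.37, limma adjusted p = 0.554), which was -0.66 without ablated 5.

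A pair of further Cyp4 genes had lower means in ablated brains with overlapping arrays. Cyp4p2 (152833_at) read 18.9, 2.2 and 5.9 on ablated 4, 5 and 6, against 24.1, 20.9 and 15 on control 1, 2 and 3, a log2 difference of -1.21 (SE 0.50). Here ablated 5 and 6 were low and ablated 4 lay among the controls, and the difference was -0.71 without ablated 5. Cyp4ae1 (152938_at) had 1.5, 8.2 and 10.5 in ablated brains and 17.6, 19.3 and 10.5 in control brains, a difference of -1.10 (SE 0.48). Ablated 6 and control 3 were equal, and ablated 4 was the low array.

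Cyp4g15 (152658_at), a brain-expressed relative of the hydrocarbon-forming enzyme of oenocytes, hardly moved. Its signal was 480, 356.2 and 357.5 on ablated 4, 5 and 6, and 424.3, 354.9 and 430.8 on control 1, 2 and 3. Its means were 398 ± 71.1 in ablated and 403 ± 42.1 in control brains (SD, n = 3 each), and the log2 difference of -0.028 (SE 0.16) turned to 0.081 on median-centred arrays. That oenocyte enzyme itself, Cyp4g1 (152015_at), which makes the waterproofing hydrocarbons of the cuticle, stayed at or below 1.1 on the ablated arrays and at or below 2.7 on the control arrays. Cyp4d21 (152958_at), also called sxe1 and known for male mating, was likewise dim, at 0.7 to 3.2 in ablated and 0.5 to 4.5 in control brains. Of the 22 Cyp4 probe sets, 10 were below the level for testing.

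**Figure D2:**
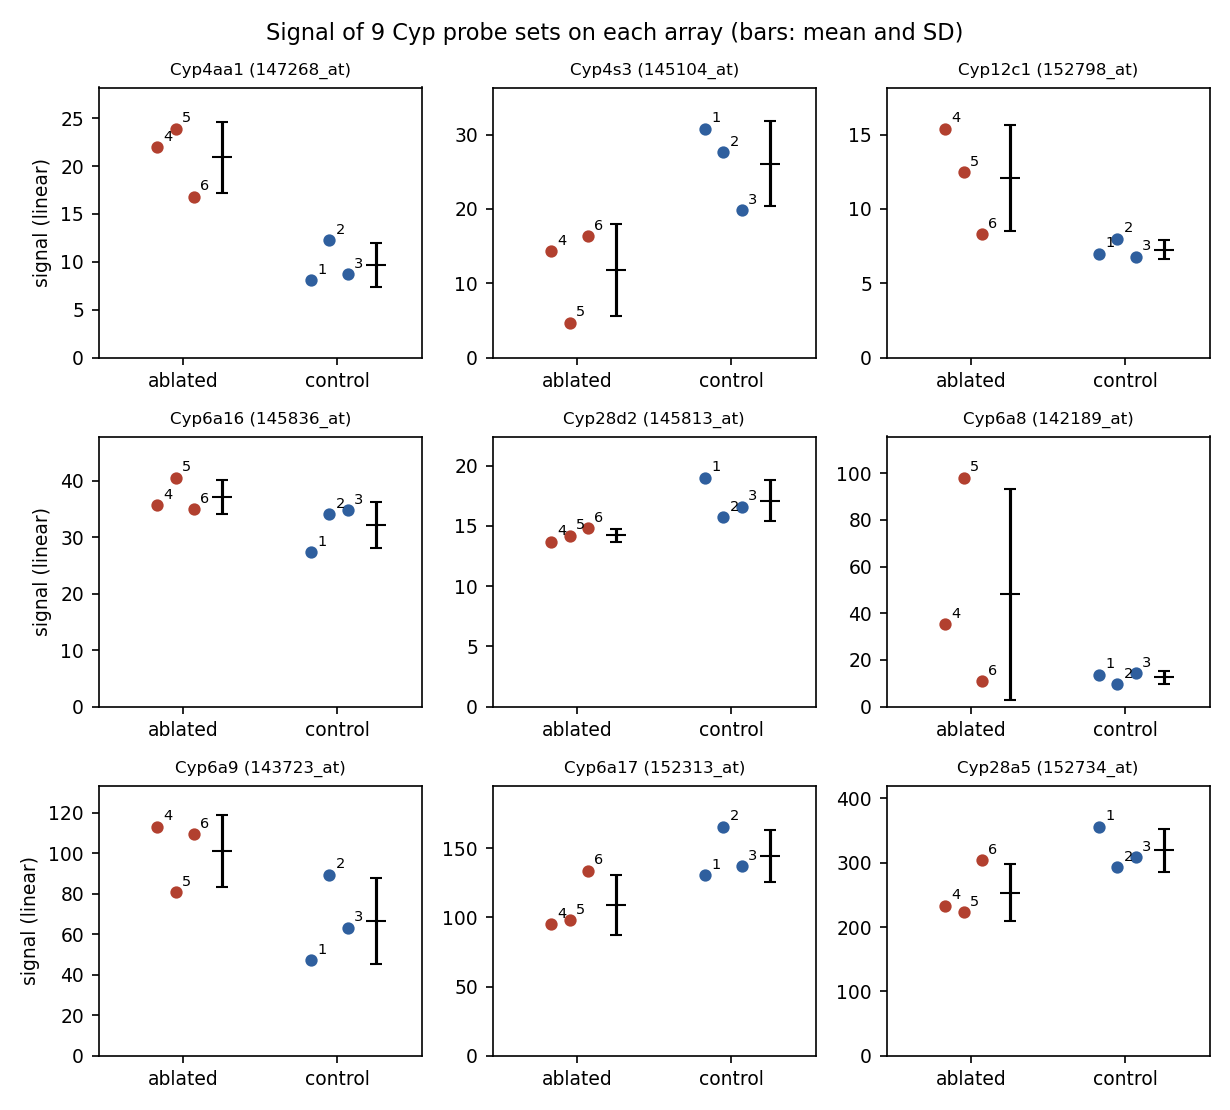
Linear signal (vertical axis, from 0) of 9 P450 probe sets on each array, with ablated arrays 4, 5 and 6 in red on the left and control arrays 1, 2 and 3 in blue on the right of each panel; black bars are the mean and SD of the 3 arrays. Cyp4aa1, Cyp12c1 and Cyp6a16 lie wholly higher in ablated brains, Cyp4s3 and Cyp28d2 wholly lower, and Cyp6a8 is high on ablated 5 (98.1) and ablated 4 (35.3) only.

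The Cyp6 family, of the CYP3 clan, holds the best studied insecticide resistance genes of the fly and had 17 of 23 genes tested. Its median difference was 0.057, with 10 above 0 and 7 below, and 0.17 on median-centred arrays. Cyp6a8 (142189_at), a gene induced by foreign compounds, measured 35.3, 98.1 and 10.8 on ablated 4, 5 and 6 and 13.7, 9.5 and 14.4 on control 1, 2 and 3. Its difference of 1.31 (SE 0.59, limma adjusted p = 0.554) was the highest among the tested P450 probe sets in the deposited values. Ablated 6 lay among the controls, and without ablated 5 the difference was 0.59. Cyp6a9 (143723_at) had 113, 80.8 and 109.4 in ablated brains against 47.1, 89.4 and 63.2 in control brains, a difference of 0.61 (SE 0.25, limma adjusted p = 0.554). Only control 2 reached into the ablated range, and on median-centred arrays the groups were apart with a difference of 0.72.

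Cyp6a17 (152313_at), known for its part in temperature preference, had the smallest unadjusted p among the lower Cyp6 genes. It read 95, 98.3 and 134 on ablated 4, 5 and 6, against 130.4, 165.7 and 137.2 on control 1, 2 and 3. Ablated 4 and 5 were below all controls, while ablated 6 was just above control 1. Means were 109 ± 21.6 in ablated and 144 ± 18.7 in control brains (SD, n = 3 each), a log2 difference of -0.41 (SE 0.19, limma adjusted p = 0.554), and -0.30 on median-centred arrays. Its neighbour Cyp6a23 (147225_at) had 17.3, 38.8 and 17.7 in ablated and 18.8, 17.5 and 13.7 in control brains, a difference of 0.42 (SE 0.31), which was 0.070 without ablated 5. These are closely related copies, and probes that bind both could mix their signals. Probe sequences were not used here.

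Cyp6g1 (152900_at), the DDT resistance gene of field flies, read 36.5, 110.9 and 36.3 on ablated 4, 5 and 6 and 62, 25.6 and 26.7 on control 1, 2 and 3, a difference of 0.56 (SE 0.45). Ablated 5 and control 1 were the high arrays, and without ablated 5 the difference was 0.050. Cyp6a2 (143127_at), also tied to DDT resistance, had 36.7, 16.2 and 3.1 in ablated against 30.1, 5.7 and 22.9 in control brains, a difference of -0.24 (SE 0.70). Cyp6g2 (147065_at), next to Cyp6g1 on the chromosome, read 3.1, 63 and 46.6 in ablated and 6.2, 22.8 and 15.8 in control brains, with ablated 4 and control 1 under the level for testing. Cyp6w1 (152494_at), another gene linked to DDT, stood at 126 ± 47.7 in ablated and 120 ± 12.3 in control brains (SD, n = 3 each), a difference of 0.012 (SE 0.26).

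Cyp6a20 (141583_at), which affects male aggression, had 43, 41.8 and 26.6 in ablated and 37.6, 22.2 and 50 in control brains. The arrays were interleaved, and the difference was 0.057 (SE 0.30). Cyp6a16 (145836_at) was slightly but wholly higher, at 34.9 to 40.5 in ablated and 27.4 to 34.8 in control brains, a difference of 0.20 (SE 0.19). The closest arrays, ablated 6 at 34.9 and control 3 at 34.8, nearly met, and the groups overlapped on median-centred arrays.

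The Cyp9 genes, also of the CYP3 clan, all stood above 0 in the deposited values, over 5 tested probe sets of 4 genes. Their differences ran between 0.0057 and 0.44 with a median of 0.15, which was -0.022 without ablated 5. Cyp9f2 had a pair of tested probe sets, the only P450 gene with more than 1. One (149768_s_at) measured 470 ± 53.1 in ablated and 423 ± 46.7 in control brains (SD, n = 3 each), a difference of 0.15 (SE 0.14). The other (153031_at) measured 538 ± 71.2 in ablated and 534 ± 42.9 in control brains (SD, n = 3 each), a difference of 0.0057 (SE 0.14). Cyp9b2 (142222_at) read 39.4, 90.1 and 20.5 in ablated and 35.7, 55.5 and 13.7 in control brains, while its dimmer probe set (141851_at) stayed at or below 7.4.

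The Cyp12 family belongs to the mitochondrial clan, whose enzymes draw electrons from ferredoxin. It had 4 of 5 genes tested and a median difference of 0.11. Cyp12c1 (152798_at) had 15.4, 12.5 and 8.3 on ablated 4, 5 and 6, against 7, 8 and 6.8 on control 1, 2 and 3. Every ablated array was higher, though ablated 6 and control 2 nearly met, in a range near the level for testing. Its difference was 0.54 (SE 0.35, limma adjusted p = 0.593), and it passed the level only through the ablated arrays. Cyp12a4 (150181_at), a lufenuron resistance gene, read 199, 189.3 and 227.7 in ablated and 201.5, 191.2 and 176 in control brains, with overlap and a difference of 0.11 (SE 0.15). Cyp12e1 (149632_at) was the one below 0, at -0.030 (SE 0.20), and stood at 0.080 on median-centred arrays.

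All 4 Cyp28 genes, which lie in the CYP3 clan, were tested and lay below 0, with a median of -0.18 against -0.17 for all tested probe sets. Cyp28a5 (152734_at) read 233.5, 223.3 and 303.9 in ablated and 356.1, 293.2 and 308.4 in control brains. Ablated 6 reached into the control range, and the difference was -0.34 (SE 0.16, limma adjusted p = 0.554). Cyp28d2 (145813_at) was wholly lower, at 13.7 to 14.8 in ablated and 15.7 to 19 in control brains, a difference of -0.22 (SE 0.24), with overlap on median-centred arrays. Its neighbour Cyp28d1 (152866_at), linked to nicotine resistance, was the steadiest tested P450 probe set, spanning 1.20-fold over the 6 arrays. It measured 803 ± 45.0 in ablated and 859 ± 45.0 in control brains (SD, n = 3 each), a difference of -0.098 (SE 0.11). On median-centred arrays the Cyp28 median was -0.075 and Cyp28d1 turned to 0.012.

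The 300 series is a span of family numbers and not a lineage, since its 13 families here fall into all 4 clans. Of its 19 genes and 20 probe sets, 6 were tested, with 5 differences above 0, 1 below 0 and a median of 0.12, which was 0.13 without ablated 5. Cyp311a1 (144914_at) had 14.1, 9.2 and 19.9 on ablated 4, 5 and 6, against 12.9, 3.8 and 2.7 on control 1, 2 and 3. Control 1 lay within the ablated range, the difference was 1.01 (SE 0.48, limma adjusted p = 0.554), and it passed the level for testing only through the ablated arrays. Cyp308a1 (145320_at) measured 13.4, 28.4 and 19.8 in ablated and 15.2, 11.3 and 11.9 in control brains, a difference of 0.54 (SE 0.30). Control 1 was above ablated 4 in the deposited values, the groups separated on median-centred arrays, and the difference was 0.30 without ablated 5.

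Cyp305a1 (153050_at) stood at 184 ± 32.2 in ablated and 162 ± 16.1 in control brains (SD, n = 3 each), a difference of 0.18 (SE 0.17). Cyp301a1 (147103_at), needed for adult cuticle, stood at 12.1 ± 1.75 in ablated and 11.9 ± 2.08 in control brains (SD, n = 3 each). The only tested gene below 0 was Cyp313a1 (149899_at), at 6.1, 20.1 and 2.9 in ablated and 11.6, 7.7 and 9.9 in control brains, a difference of -0.25 (SE 0.52). Cyp303a1 (143222_at), needed for sensory bristles, read 2.1, 2 and 8.5 in ablated and 2.6, 2.5 and 2.1 in control brains and was not tested. Cyp310a1 (155069_at) was also below the level, at 1.1 to 1.3 in ablated and 0.4 to 6.1 in control brains. The other 5 genes of the Cyp313 family did not exceed 4.9 on any array.

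Of the remaining family numbers, Cyp18a1 (143606_at), which inactivates the moulting hormone ecdysone, was tested and Cyp49a1 was not. Cyp18a1 had 27, 13.2 and 15.9 on ablated 4, 5 and 6, against 32.4, 25.6 and 20.4 on control 1, 2 and 3. Ablated 5 and 6 were below all controls and ablated 4 was among them. Means were 18.7 ± 7.31 in ablated and 26.1 ± 6.02 in control brains (SD, n = 3 each), a log2 difference of -0.46 (SE 0.29, limma adjusted p = 0.580), and -0.27 without ablated 5. Both probe sets of Cyp49a1 stayed at or below 12.3 on every array.

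Across the family, 35 of 84 probe sets were below the level for testing, and 19 of these never reached a signal of 5. The highest single value among the 35 was 15.4, for Cyp6a18 on control 1. Among the 49 tested, 13 spanned less than 1.5-fold from their lowest to their highest array, as did 22.3% of all tested probe sets, and 12 spanned more than 4-fold, as did 9.58%. Differences larger than 0.5 in size numbered 8 on the higher side and 3 on the lower side. Over all tested probe sets those shares were 3.36% higher and 9.78% lower. Without ablated 5, 5 of the 8 higher genes still differed by more than 0.5 (Cyp4aa1, Cyp6a8, Cyp6a9, Cyp12c1 and Cyp311a1), as did the 3 lower ones on their side (Cyp4s3, Cyp4ae1 and Cyp4p2). Of these, Cyp12c1, Cyp311a1, Cyp4ae1 and Cyp4p2 had passed the level for testing only through the group in which they were high, so their sizes are given as a description.

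**Figure D3:**
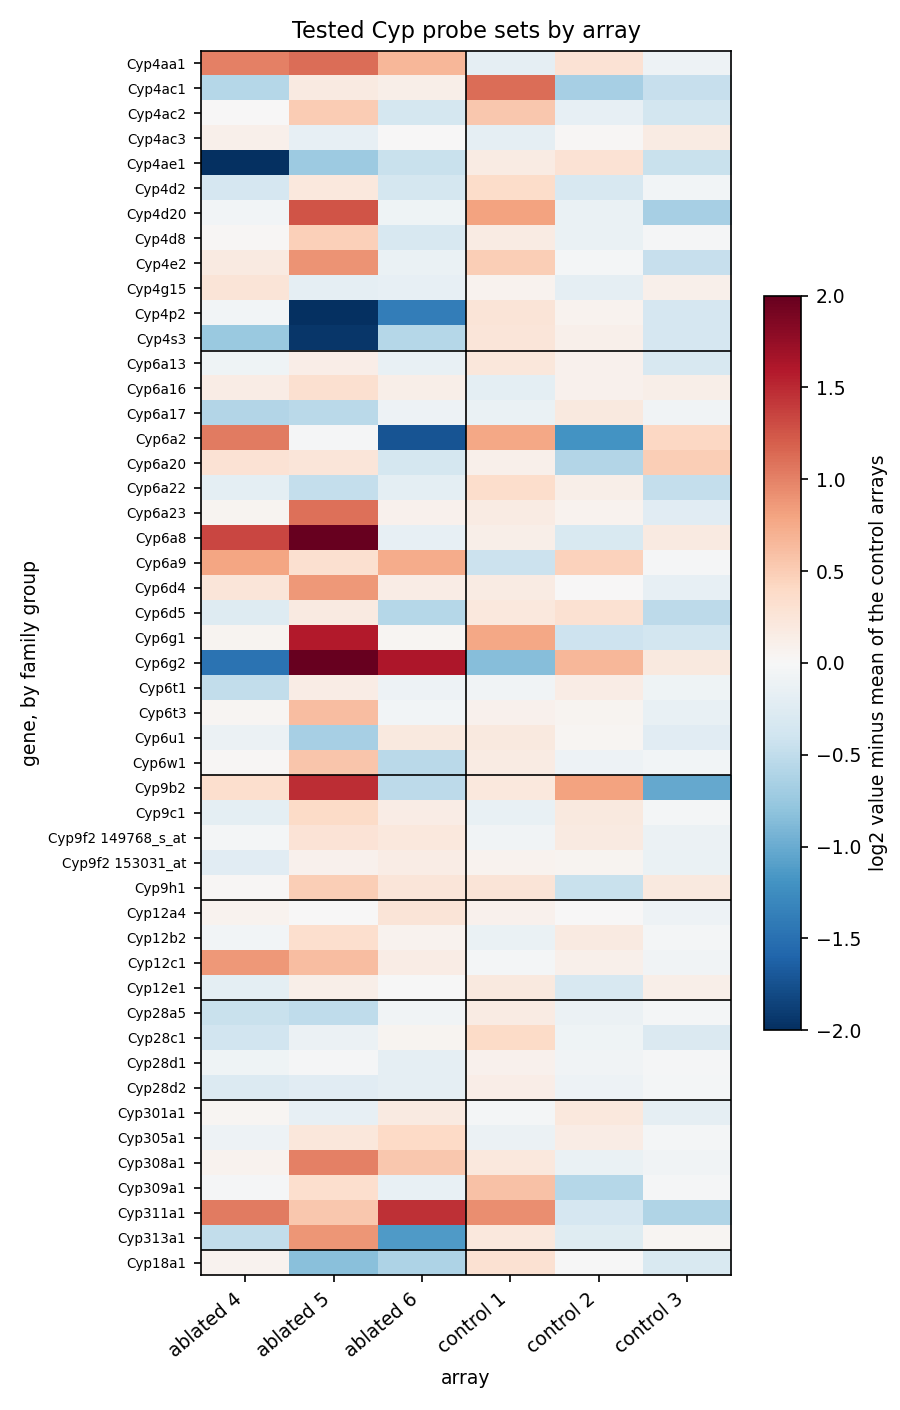
Log2 value of each tested P450 probe set (rows, by family group) on each array (columns, ablated left of control), relative to the mean of the control arrays; red is higher, blue lower, and the colour scale ends at -2 and 2. The column of ablated 5 holds most of the strong red cells, among them Cyp6a8, Cyp6g1, Cyp6g2, Cyp9b2 and Cyp4d20.

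The widest pattern in the family was by array and not by group. Ablated 5 was the highest of the 6 arrays for 19 of the 49 tested P450 probe sets (38.8%), against 7.45% of all tested probe sets. On median-centred arrays the shares were 57.1% (28 probe sets) and 19%. Relative to the control mean, the P450 probe sets had medians of -0.025, 0.25 and -0.066 on ablated 4, 5 and 6, where all tested probe sets had -0.14, -0.26 and -0.072. Ablated 5 therefore had the lowest general signal of the 6 arrays and the highest P450 signal.

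Control 1 was the highest array for 28.6% of the P450 probe sets, against 45.6% of all tested probe sets, and for 8.16% against 17.2% on median-centred arrays. Its P450 median stood at 0.16 relative to the control mean and that of all tested probe sets at 0.14. Both control 1 among the controls and ablated 5 among the ablated arrays were highest for 18 of the 49 P450 probe sets (36.7%), against 11.7% of all tested probe sets, a count chosen after the values were seen and one that the general brightness of control 1 enters. Cyp4e2 (154078_at) was among them, with 132.1, 218.8 and 105.9 in ablated and 165.8, 113.6 and 84.3 in control brains. Cyp4d20 (148049_at) read 15.1, 41.5 and 14.8 in ablated against 29.7, 14.2 and 9 in control brains. Others were Cyp6g1, Cyp6w1, Cyp6a23, Cyp4ac1, Cyp309a1 and Cyp308a1.

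Markers of other tissues also differed among the arrays, each list in its own way. The fat body list, with 8 of 9 genes measured, summed to 16293, 20109 and 15902 on ablated 4, 5 and 6 and to 25670, 14557 and 11410 on control 1, 2 and 3. Most of this sum was Yp1, Yp2 and Yp3 on every array. The storage protein gene Lsp2 of the list read 276.3, 686.6 and 398.7 in ablated and 1413.9, 144.6 and 152.5 in control brains, while Fbp2 stayed at or below 2.6. Odorant-binding protein genes, expressed mostly in antennae and taste organs, had 11 of 15 measured, with sums of 441.9, 1763 and 484.9 in ablated and 635.3, 340.5 and 249.1 in control brains. On every array but ablated 5, most of this sum was Obp99a. That gene read 291.6, 315.6 and 304.7 in ablated and 557.7, 259 and 185.3 in control brains. Os-C and lush were at or below 1.3 on every control array and read 237.1 and 46.8 on ablated 5. In the same list Obp19d, Obp56d and Obp56e were wholly higher in ablated brains, as were 1.26% of all tested probe sets. Obp56e stayed at or below 6.8, under the level for testing. Muscle genes, 9 of 13 measured, summed to 252.5, 1123 and 231.8 in ablated and 103.1, 649.4 and 83.7 in control brains. Oenocyte markers gave sums of 209.8 to 287.9 in ablated and 159.5 to 411 in control brains over 4 of 6 genes, with FarO and FASN2 at or below 5.6. Tracheal markers, 6 of 7 measured, summed to 381.7, 519.2 and 234 in ablated and 113.2, 210.2 and 74 in control brains, with no overlap. Most of this sum was wat, at 189.3 to 419.5 in ablated and 43.1 to 154.9 in control brains. The genes wat and pio were wholly higher in ablated brains, beside the same 1.26%. The others, verm, serp and Gasp, overlapped, and btl stayed at or below 4. Retinal markers, 5 of 13 measured, summed to 1332, 367.1 and 857.5 in ablated and 1745, 665.5 and 106.6 in control brains. Haemocyte markers, 5 of 5 measured, summed to 123 to 147.7 in ablated and 127 to 223.8 in control brains. Of these Hml was wholly lower, at 37.1 to 37.6 in ablated and 43.5 to 52.9 in control brains, as were 14.8% of all tested probe sets. Both control 1 among the controls and ablated 5 among the ablated arrays were highest for 5 fat body, 4 odorant-binding protein and 2 haemocyte genes, and for 0 muscle, oenocyte, tracheal or retinal genes. The part of such tissues in the P450 values was not tested.

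**Figure D4:**
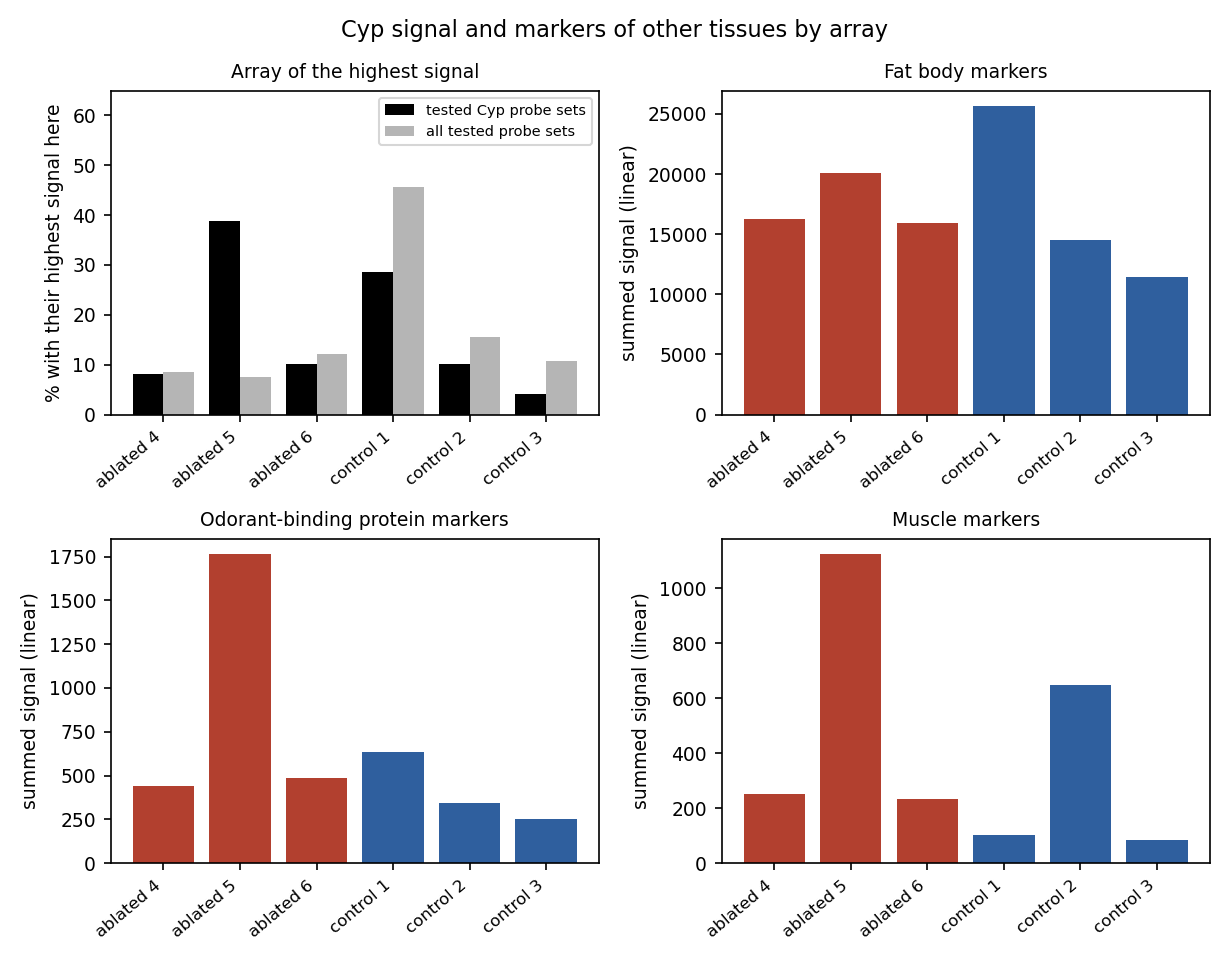
By array (horizontal axis, ablated left of control), the percentage of tested P450 probe sets (black) and of all tested probe sets (grey) that have their highest signal there, and the summed linear signal of fat body, odorant-binding protein and muscle markers (ablated red, control blue). Ablated 5 holds the highest signal for 38.8% of P450 probe sets and 7.45% of all, and it has the highest odorant-binding protein and muscle sums, while the highest fat body sum is on control 1.

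Genes listed for a link to P450s showed no call either. A list of possible redox partners had 4 of 6 genes tested, with a median of 0.0057. Cyt-b5 stood at 0.24, Cyt-b5-r at 0.49 and Fdx1 at -0.23. Whether each of them passes electrons to P450s was not tested. The other listed genes, Cpr and dare, had no probe set assigned to them alone and were not measured. Fdx2 (148166_at), a mitochondrial ferredoxin, differed by -0.54 (SE 0.31), with 102.1, 56.4 and 157.6 in ablated against 150.1, 145.8 and 130.6 in control brains, and by -0.16 without ablated 5. Genes of haem synthesis, which supply the P450 cofactor, had 6 of 7 tested, 5 below 0, and a median of -0.23, where all tested probe sets had 74.1% below 0, 14.8% wholly lower and a median of -0.17. Of these Pbgs (148647_at), porphobilinogen synthase, was wholly lower, at 19.1, 12.3 and 20.5 in ablated and 28.8, 22.3 and 22.6 in control brains, a difference of -0.46 (SE 0.25, limma adjusted p = 0.568). FeCH (142133_at), ferrochelatase, which inserts the iron, was also wholly lower, at 56.5, 59 and 61.2 in ablated and 72.7, 73.4 and 66.6 in control brains, a difference of -0.26 (SE 0.16, limma adjusted p = 0.580). On median-centred arrays Pbgs stayed apart at -0.35 and FeCH overlapped at -0.15.

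Regulators of the response to foreign compounds had 5 of 6 genes tested, all 5 below 0, with a median of -0.29, beside the same 74.1% and -0.17 over all tested probe sets. The cap'n'collar factor cnc (150432_at), which activates detoxification genes, read 19, 14.2 and 13.8 in ablated and 25.2, 18.4 and 17.3 in control brains, a difference of -0.32 (SE 0.25) with overlap, while tgo, whose product partners the dioxin receptor homologue, turned to 0.070 on median-centred arrays. Ecdysteroid synthesis, which uses P450s known by other names, had 3 of 8 genes tested, with a median of 0.13. Of these sro (150844_at), an early-step enzyme, differed by 0.31 (SE 0.28) with overlap. Juvenile hormone enzymes had 2 of 6 tested. Jhedup (147280_at), a copy of the juvenile hormone esterase gene, differed by 1.12 (SE 0.70), with 4, 47.6 and 11.6 in ablated against 8.6, 1.8 and 6.5 in control brains. Without ablated 5 this was 0.33, and the gene passed the level for testing only through the ablated arrays. In these 5 lists 0 genes passed limma's test after adjustment over all probe sets.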

How the data were processed

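RNA of whole brains was taken up in Trizol and carried a biotin label, as the labels' protocols give it, and was measured on 6 Affymetrix arrays. The values used are the deposited intensity of each probe set, on a linear scale. The submitters' processing notes name MAS5, its settings and scaling not given in the sources used here. Of 13966 probe sets other than 44 Affymetrix controls, 12443 have 1 gene in the platform annotation, 327 several and 1196 none. Symbols were matched to RefSeq by gene identifier, which changed no P450 symbol. The offset 2.7 and the level 9.2 are the 20th and 40th percentile of all values. The fit used limma 3.58.1 under R 4.3.3, with an intensity trend, no covariates, two-sided tests and Benjamini-Hochberg adjustment over 8381 probe sets at 0.05, and was tested on simulated data. Each listed gene other than a P450 stands by its brightest probe set. Clans follow textbook assignment. With 3 arrays a group, their number limits the precision.

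The members, the lists and the alternatives were chosen with earlier results of these data known. The naming rule took P450 probe sets 1.5-fold apart with no overlap, the smallest p per family group and direction, all tested probe sets of genes with several, and a list of genes with a textbook role or named in those results. In the other lists it took genes whose groups did not overlap, or else the smallest p. Alternatives covered scaling, offset, level for testing, intensity trend, probe set per gene and arrays left out. RefSeq served for symbols and gene order only, since the files name no genome build.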

Additional observations from a re-analysis of the deposited data

How the results depend on the processing

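All other limma settings that were run also called 0 probe sets at an adjusted p under 0.05, in each direction. The P450 median of 0.054 moved by less than the within-group SD of the single-array medians (0.15) in every setting. That SD is widened by ablated 5, at 0.25 beside -0.025 and -0.066 on ablated 4 and 6. It does not measure the precision of the P450 median. With single arrays left out, this median lay between -0.038 (without ablated 5) and 0.11 (without ablated 6). It was -0.0098 without control 2, so its sign was not stable. With median-centred arrays, quantile normalization and cyclic loess it was 0.16, 0.17 and 0.19. P450 probe sets 1.5-fold apart without overlap numbered 1 higher and 1 lower in the deposited values. With each of the 3 scalings there were 4 higher and 2 lower. There were 2 higher with an offset of 1, 0 higher with an offset of 16, 0 in either direction when a mean of at least 22.9 was asked, and 2 higher without control 1 and ablated 5. Leaving out single arrays gave 1 to 5 higher and 1 to 3 lower, where fewer arrays make overlap rarer. The share over all tested probe sets is given for the deposited values only, at 0.477% higher and 3.2% lower. The counts in the other settings are therefore a description, with no background to read them against. Of the named genes, 8 results turned sign somewhere, all at most 0.25 in size. With median-centred arrays, quantile normalization and cyclic loess, Cyp12e1 stood at 0.080, 0.14 and 0.17 and Cyp4g15 at 0.081, 0.11 and 0.15. Without control 1 and ablated 5, Cyp4g15 stood at 0.083, Cyp6a2 at 0.044 and Cyp6w1 at -0.18. With single arrays left out, the ranges were -0.19 to 0.071 for Cyp12e1, -0.17 to 0.044 for Cyp4g15, -0.87 to 0.51 for Cyp6a2, -0.24 to 0.30 for Cyp6a20, -0.26 to 0.29 for Cyp6w1, -0.064 to 0.12 for Cyp9f2 (153031_at), -0.073 to 0.13 for Cyp301a1 and -0.81 to 0.20 for Cyp313a1. The cause of these changes was not tested. No named P450 passed the threshold in any setting. No paired analysis was possible because the control and ablated arrays share no replicate numbers.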

Other observations

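Many P450 genes lie side by side as tandem copies, and neighbours did not always differ in the same direction. In the gene order of RefSeq, 41 of the 81 P450 genes formed 14 unbroken runs of 2 or more. Of the 5 runs with at least 2 tested genes, 2 held differences on both sides of 0. The longest run has 9 genes, and its 6 tested members were Cyp6a22 at -0.29, Cyp6a17 at -0.41, Cyp6a23 at 0.42, Cyp6a9 at 0.61, Cyp6a20 at 0.057 and Cyp6a8 at 1.31. In the run of Cyp6g1, Cyp6g2 and Cyp6t3 all 3 lay above 0, at 0.56, 0.72 and 0.21, and all 3 were highest on ablated 5. Without that array they stood at 0.050, 0.068 and -0.0021. Shared probes between such copies were not tested.

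The insecticide resistance gene Cyp12d1-d, outside the symbol form used here, has a probe set (154692_at) that read 16.6, 11.1 and 12.3 on ablated 4, 5 and 6 and 27.7, 13.4 and 11.3 on control 1, 2 and 3. A second one (146978_s_at), assigned to both Cyp12d1-d and Cyp12d1-p, stayed at or below 3 on ablated and 7.9 on control arrays. The similarly named Cyp1, Cyp40 and Cypl are cyclophilins and were not counted as P450 genes.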
